A study of Mus musculus with 11 samples.

Results

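The genes described here are 8 matrix metalloproteinases (Mmp3, Mmp7, Mmp8, Mmp9, Mmp10, Mmp13, Mmp14 and Mmp15), the metalloproteinase inhibitor Timp1 and the matrix glycoprotein tenascin C (Tnc). They were taken by symbol from a count table of 54513 genes, all 10 were found, and all 10 passed the filter on low counts that left 19267 genes for testing. Mmp3 and Mmp10 passed that filter only through the group in which they were high. RNA had been sequenced from colonic epithelial cells of wild-type (WT) mice and of double-knockout (DKO) mice. The DKO mice lack 2 clusters of microRNA genes, miR-181a1-b1 and miR-181a2-b2, each with a copy of miR-181a and of miR-181b. The 4 groups were untreated WT (baseline WT, n = 2), untreated DKO (baseline DKO, n = 3), DSS-treated WT (DSS WT, n = 3) and DSS-treated DKO (DSS DKO, n = 3). Dextran sulphate sodium (DSS) is a polysaccharide that injures the colonic epithelium; the DSS groups had 2% DSS for 7 days and then 2 days of recovery. Percoll, a density medium, had been used to deplete lymphocytes. The labels give neither strain, age nor litter, and call the libraries biological replicates without tying each to a single mouse. The p-values therefore measure spread between libraries, which may in part be technical.

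Matrix metalloproteinases are zinc-dependent endopeptidases, mostly made as inactive proenzymes, that cut collagens, other matrix proteins and many secreted and cell surface proteins. In the injured gut they take part in matrix turnover, in release of cytokines and in movement of cells through a wound, and they are made by epithelial cells at wound edges, by fibroblasts and by leukocytes. Timp1 is a secreted inhibitor that binds the active site of many of them, and tenascin C is a large matrix protein that appears around wounds and is bound by integrins.

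Of the 10 genes, 5 lie on mouse chromosome 9 within 427072 bases that hold 10 Mmp genes (GENCODE M21 on GRCm38). In order along the chromosome the 5 are Mmp13 at chr9:7272514-7283331, Mmp3 at chr9:7445822-7455975, Mmp10 at chr9:7502352-7510240, Mmp8 at chr9:7558456-7568485 and Mmp7 at chr9:7692090-7699585, all on the plus strand. Mmp9 lies at chr2:164940780-164955850, Mmp14 at chr14:54431612-54445364, Mmp15 at chr8:95352268-95375080 and Timp1 at chrX:20870166-20874735, on the plus strand, and Tnc at chr4:63959785-64047015 on the minus strand. The table gives whole genes, so no exon or isoform is separated. Timp1 lies within the bounds of Syn1, a gene on the other strand, without shared exon bases, and Syn1 had 4 to 22 counts per library. Tnc shares exon bases with the opposite-strand transcript 8030451A03Rik, which had 0 to 6 counts per library. Mmp7 shares exon bases with AV064505, which had 0 counts.

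Promoter sequences in RefSeq (GRCm38.p6, 250 bases before to 50 bases after the annotated start) were found for 9 of the 10 genes, all but Mmp9. The letters TGAGTCA, the textbook binding sequence of the stress-responsive AP-1 factors, were searched on both strands (TGACTCA on the other strand). They occurred in the promoters of 4 of the 9, Mmp3, Mmp7, Mmp10 and Mmp13, which are all in the chromosome 9 cluster, against 5.20% of 32851 promoters of that length. The 47 bases around each match are shown because these 4 genes carry much of what follows; the match is in capitals and reads 5′ to 3′ on the gene's strand.
Mmp3: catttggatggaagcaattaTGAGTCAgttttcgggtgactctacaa
Mmp7: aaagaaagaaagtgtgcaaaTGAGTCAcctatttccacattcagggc
Mmp10: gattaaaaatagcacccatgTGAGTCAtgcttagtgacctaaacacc
Mmp13: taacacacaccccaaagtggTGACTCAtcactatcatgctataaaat
The windows lie at chr9:7445756-7445802 for Mmp3, chr9:7692007-7692053 for Mmp7, chr9:7502259-7502305 for Mmp10 and chr9:7272459-7272505 for Mmp13. The first base of the match is 46 bases before the annotated start in Mmp3, 63 in Mmp7, 63 in Mmp10 and 35 in Mmp13. A match is a string of letters and not a measured binding site, and these libraries hold no measurement of binding.

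The microRNAs that the DKO mice lack are shown with the seed, bases 2 to 8, in capitals, since the seed is the part that pairs with target messenger RNAs.
miR-181a-5p: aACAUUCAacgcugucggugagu
miR-181b-5p: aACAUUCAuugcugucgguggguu
Both have the same seed. Its complementary letters TGAATGT, and the variant GAATGTA, were searched on the transcript strand of the longest annotated 3′ UTR of each of the 10 genes, 103 to 2560 bases long. They occurred in 0 of the 10, against 15.4% of 15507 genes of the table with a 3′ UTR in that range of lengths.

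**Figure D1:**
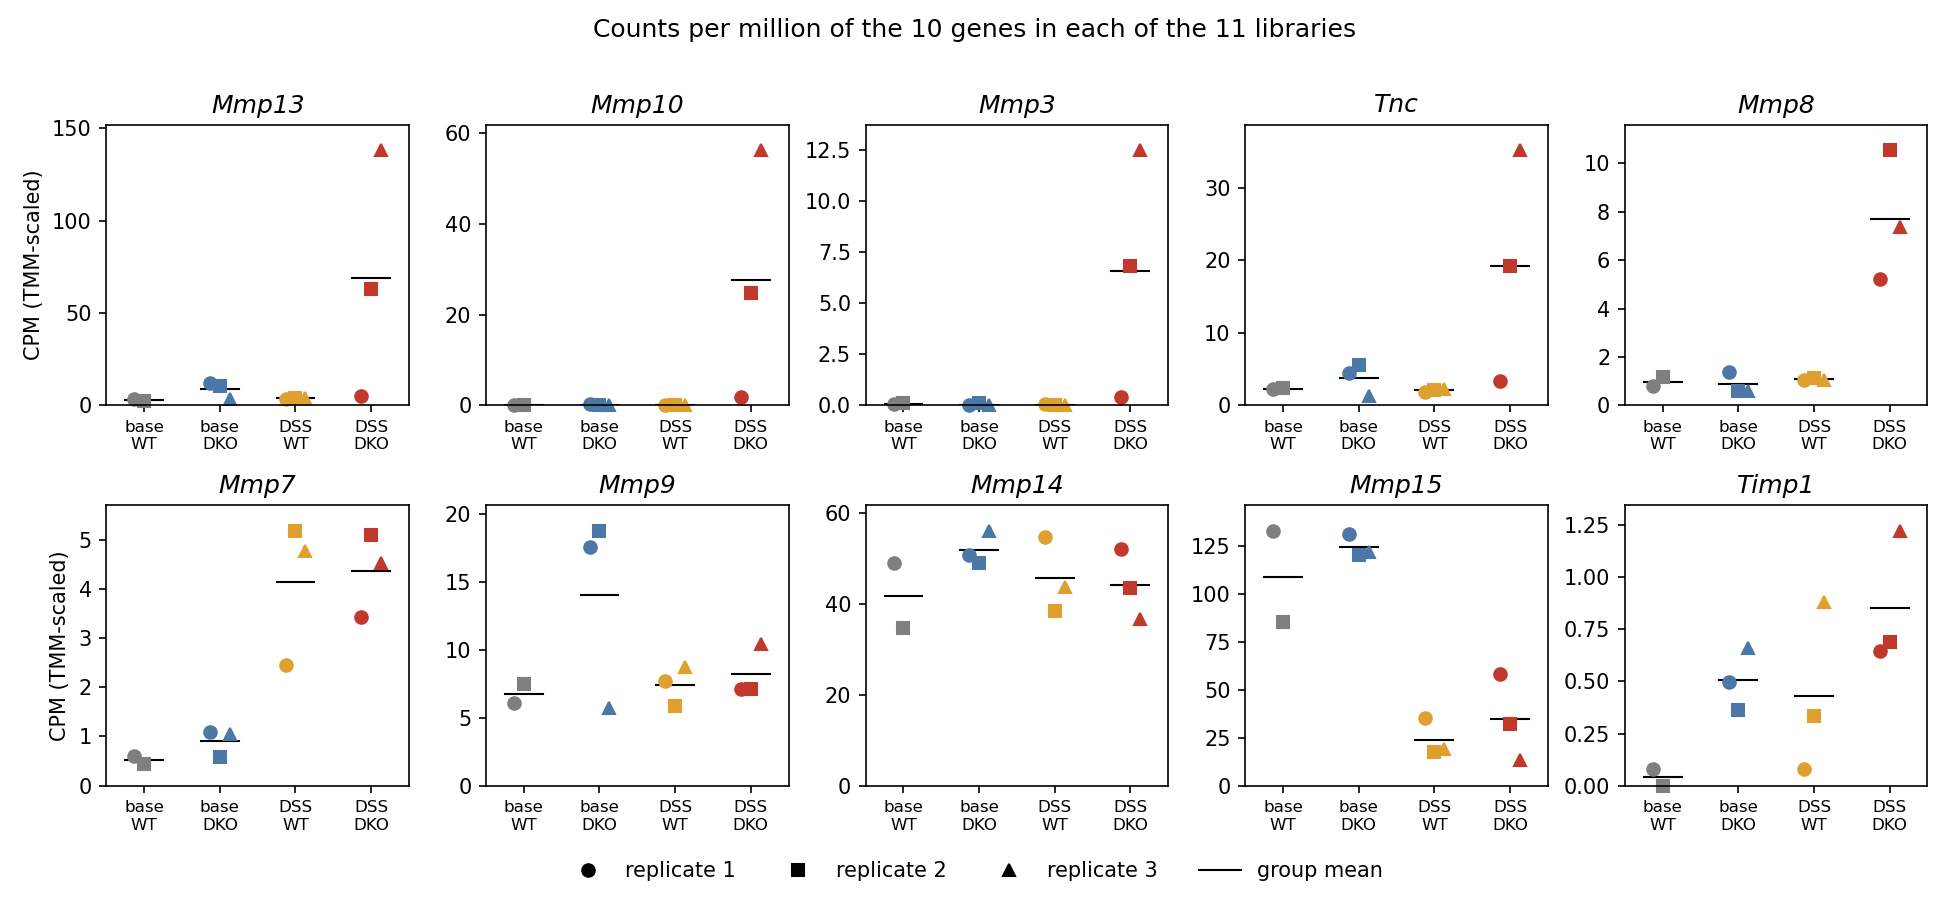
CPM, counts scaled to library size (vertical axes, linear from 0, each gene on its own scale) of the 10 genes in each of the 11 libraries, in 4 groups along the horizontal axis; symbols mark the replicate and lines the group mean. Mmp13, Mmp10, Mmp3 and Tnc were highest in replicates 2 and 3 of DSS DKO, Mmp8 was high in all 3 DSS DKO libraries, Mmp7 was high in all 6 DSS libraries, and Mmp15 was low in them.

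Levels are given in CPM, the counts scaled to the library's total after a TMM correction for library composition. After DSS, 5 of the 10 genes were higher in DKO than in WT and 0 were lower. The 5 were the collagenases Mmp13 and Mmp8, the stromelysins Mmp3 and Mmp10, and Tnc. Among all genes tested, 5.26% were called higher and 5.98% lower in this comparison, at an adjusted p under 0.05 (the quasi-likelihood test of edgeR, Benjamini-Hochberg adjusted over all genes). Since Mmp3 and Mmp10 could enter the test only through DSS DKO, nothing is read from the count of 5 against that share; of the 8 members that reached the minimum in other groups, 3 were higher (Mmp13, Mmp8 and Tnc) and 0 lower. Mmp7, Mmp9, Mmp14, Mmp15 and Timp1 did not pass. The median log2 difference over the 19267 genes was 0.03. In bulk RNA, more cells of a type and more RNA per cell cannot be told apart.

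Mmp13 is collagenase-3, which cuts fibrillar collagens. In DSS DKO it was at 5.11, 63.1 and 138 CPM in replicates 1 to 3, and in DSS WT at 3.59, 3.97 and 4.07. The DSS DKO libraries all lay above the DSS WT libraries, but replicate 1 only just, and replicates 2 and 3 stood far above all other libraries. After DSS, all DKO libraries lay above all WT libraries in 14% of all genes tested. At baseline Mmp13 was at 3.39 and 2.19 CPM in WT and at 11.9, 10.7 and 3.18 CPM in DKO, so that DSS DKO replicate 1 was below both of the higher baseline DKO libraries. The fitted log2 difference between DKO and WT after DSS was 4.15 ± 0.98 (SE), with adjusted p = 0.0281. It passed in 11 of 18 other settings, with log2 differences of 3.14 to 4.70 and adjusted p up to 0.0999. It did not pass when DSS WT replicate 1, 2 or 3 or DSS DKO replicate 2 was left out (adjusted p = 0.0732, 0.0965, 0.0882 and 0.0698), when the DSS libraries were fitted alone (0.0571), or without both baseline DKO replicates 1 and 2 (0.0581).

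Mmp8, collagenase-2, is stored in the granules of neutrophils. It was at 5.20, 10.5 and 7.37 CPM in DSS DKO against 1.04, 1.14 and 1.06 in DSS WT. Baseline libraries were at 0.808 and 1.15 CPM in WT and 1.39, 0.581 and 0.602 in DKO, so each DSS DKO library lay above all 8 others. Unlike Mmp13, its lowest DSS DKO library was close to the rest, with 2.03-fold between the highest and the lowest. The log2 difference after DSS was 2.83 ± 0.36 (SE), with adjusted p = 0.00106, and it passed in all 18 other settings (2.54 to 3.05, adjusted p up to 0.0100).

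The stromelysins Mmp3 and Mmp10 cut proteoglycans, fibronectin and the proforms of other metalloproteinases. Mmp10 had 103, 1220 and 2480 counts in DSS DKO (1.91, 24.7 and 56.2 CPM) and 0, 0 and 2 counts in DSS WT. At baseline it had 2 and 6 counts in WT and 8, 0 and 0 in DKO. It was thus nearly undetected in 8 libraries and present in all 3 DSS DKO libraries, with a 29.5-fold spread among them. Per total count, the summed counts of DSS DKO were 2052 times those of DSS WT, with a 95% exact interval of 568 to 16949 that covers counting error only.

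Mmp3 had 22, 338 and 551 counts in DSS DKO (0.407, 6.85 and 12.5 CPM) and 2, 0 and 0 counts in DSS WT. At baseline it had 3 and 5 counts in WT and 0, 4 and 0 in DKO. As for Mmp10, replicate 1 was the lowest of the DSS DKO libraries and still above the other groups. The ratio of summed counts between DSS DKO and DSS WT, per total count, was 492 (136 to 4065, counting error only). With so few counts in WT the fitted log2 differences, 10.83 ± 1.73 for Mmp10 and 8.76 ± 1.56 for Mmp3 (SE), depend on the prior count. Their adjusted p-values, 0.00593 for Mmp10 and 0.00972 for Mmp3, are given as a description, since both genes entered the test only through the libraries in which they were high.

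Tnc was at 3.40, 19.2 and 35.1 CPM in DSS DKO against 1.78, 2.13 and 2.22 in DSS WT. The baseline levels were 2.18 and 2.34 CPM in WT, and in DKO 4.46 and 5.50 CPM, with replicate 3 the lowest of all libraries. Its DSS DKO libraries kept the order of Mmp13, Mmp10 and Mmp3, lowest in replicate 1 and highest in replicate 3, and replicate 1 lay below 2 baseline DKO libraries. The share of all genes with that order was not counted, so nothing is read from it here or for the genes below. The log2 difference after DSS was 3.23 ± 0.77 (SE), with adjusted p = 0.0289. It passed in 13 of 18 other settings (2.47 to 3.73, adjusted p up to 0.0957). It was past 0.05 without DSS WT replicate 2 or 3, DSS DKO replicate 2 or baseline WT replicate 2 (adjusted p = 0.0957, 0.0856, 0.0755 and 0.0506), and with the DSS libraries fitted alone (0.0505).

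**Figure D2:**
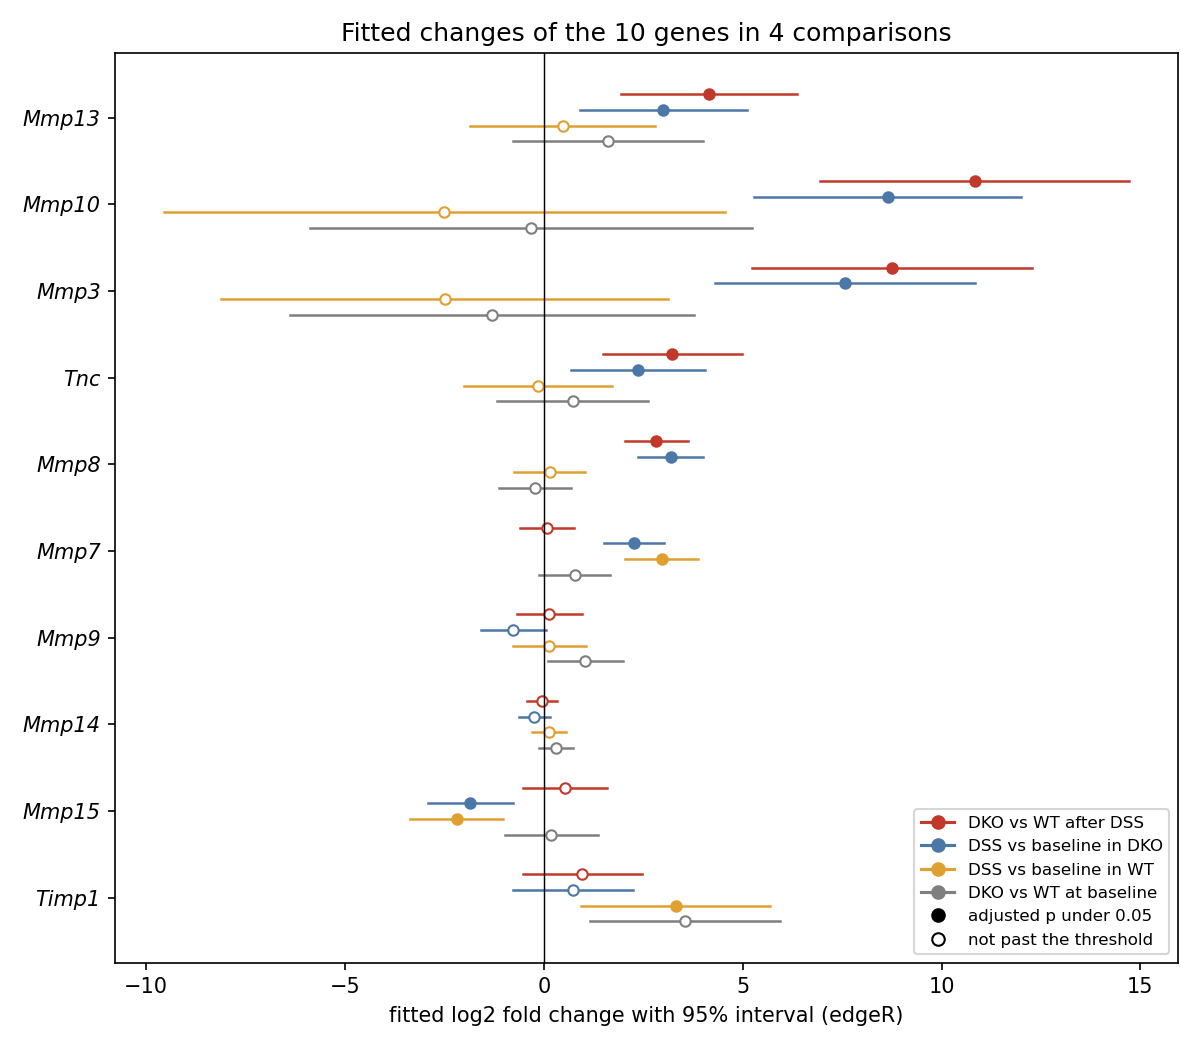
Fitted log2 fold changes (horizontal axis) with 95% intervals of the 10 genes in 4 comparisons, from edgeR's quasi-likelihood fit on 11 libraries; filled points passed an adjusted p of 0.05 and open points did not. The intervals of Mmp10 and Mmp3 are several log2 units wide, and those of Mmp14 are narrow and span 0 in all 4 comparisons.

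Of the genes that did not pass after DSS, Mmp14 had the narrowest interval. Mmp14 is the membrane-type enzyme MT1-MMP, which activates pro-Mmp2 and pro-Mmp13 at the cell surface. It was at 52.1, 43.5 and 36.6 CPM in DSS DKO against 54.9, 38.4 and 43.6 in DSS WT. The libraries of both groups were interleaved, with a log2 difference of -0.05 and a 95% interval of -0.43 to 0.33.

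Mmp7, matrilysin, is an epithelial enzyme that also activates defensins. It was at 3.42, 5.10 and 4.54 CPM in DSS DKO against 2.45, 5.18 and 4.77 in DSS WT, with a log2 difference of 0.07 (-0.61 to 0.76). Mmp9, gelatinase B, a product of neutrophils and macrophages, was at 7.09, 7.13 and 10.4 CPM in DSS DKO against 7.72, 5.83 and 8.73 in DSS WT. Its log2 difference was 0.14 (-0.67 to 0.96). The ranges of DKO and WT overlapped for both genes, although Mmp8, the other enzyme of neutrophil granules in the set, passed.

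Mmp15, the membrane-type enzyme MT2-MMP, was at 58.4, 31.9 and 13.4 CPM in DSS DKO against 35.2, 17.5 and 18.9 in DSS WT. Timp1 was low in all libraries, with 35, 34 and 54 counts in DSS DKO and 4, 18 and 48 in DSS WT. Neither passed, with log2 differences of 0.54 (-0.52 to 1.59) and 0.97 (-0.53 to 2.47), and in both the groups overlapped. Without the filter on low counts, however, Mmp15 passed, with adjusted p = 0.0177. The DSS DKO order of Mmp15, highest in replicate 1 and lowest in replicate 3, was the opposite of that of Mmp13, Mmp10, Mmp3 and Tnc.

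**Figure D3:**
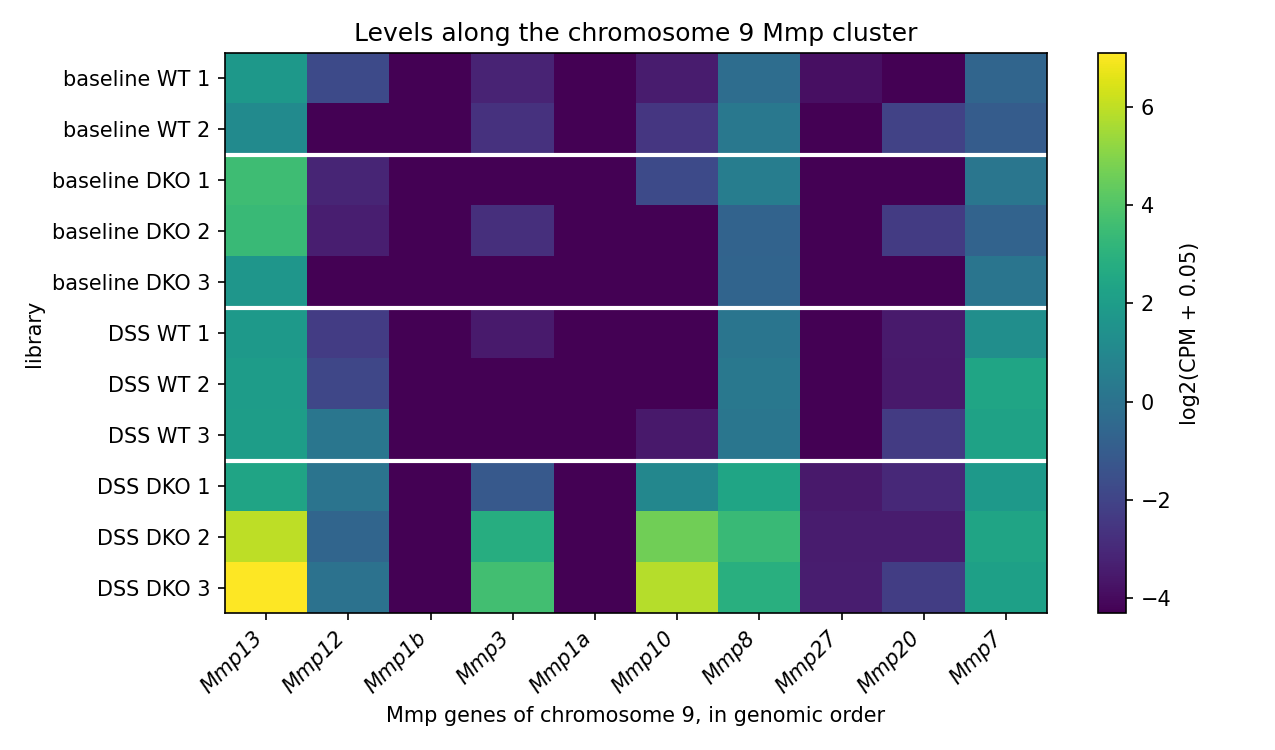
Level of each of the 10 Mmp genes of the chromosome 9 cluster (horizontal axis, in genomic order) in each library (rows), as log2 of CPM plus 0.05 (colour scale). High levels in DSS DKO are seen at Mmp13, Mmp3, Mmp10 and Mmp8, while Mmp1a and Mmp1b between them had 0 counts in all libraries and Mmp7 at the end was high in both DSS groups.

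The genes of the chromosome 9 cluster that passed were interspersed with genes that had few counts. Mmp12, the macrophage elastase, lies between Mmp13 and Mmp3 and had 54, 30 and 41 counts in DSS DKO against 8, 12 and 59 in DSS WT. Mmp1a and Mmp1b had 0 counts in all libraries, Mmp27 had at most 2 and Mmp20 at most 9. Mmp7, at the far end, had 185, 252 and 200 counts in DSS DKO against 125, 278 and 260 in DSS WT. Neighbouring genes in the cluster therefore did not all show the DKO pattern.

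At baseline 0 of the 10 genes passed between DKO and WT by edgeR, where 0.0260% of all genes were called in either direction. At an unadjusted p under 0.05, 2 of the 10 passed, Timp1 and Mmp9. The share of all genes under that threshold was not counted, so nothing is read from these 2. DESeq2 called 0 of the 10, and edgeR without the filter on low counts called 3, Mmp13, Mmp9 and Timp1, where 79 of 37472 genes were called. Timp1 had 4 and 0 counts in WT and 16, 15 and 34 in DKO, and the groups did not overlap. All DKO libraries lay above all WT libraries in 9.92% of all genes tested. The ratio of its summed counts, per total count, was 12.5 (4.67 to 47.4, counting error only), and the fitted log2 difference was 3.55 ± 1.09 (SE) with adjusted p = 1.

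Mmp9, Mmp13 and Tnc were highest at baseline in the same pair of DKO libraries. Mmp9 was at 17.6 and 18.7 CPM in baseline DKO replicates 1 and 2, and at 5.71 in replicate 3, beside 6.08 and 7.44 in baseline WT. Those 2 libraries carried an entry for 18S ribosomal RNA at 23.0% and 8.46% of their counts, against 0.128% to 1.59% in the rest, and had summed fibroblast marker levels of 588 and 541 CPM, against 260 in replicate 3. With both left out, the log2 difference was -0.24 for Mmp9, against 1.05 with them, and -0.80 for Tnc, against 0.72. For Mmp13 it was 0.19, against 1.61. The part of library composition in these differences was not tested.

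Against baseline, Mmp7 and Timp1 were higher after DSS in WT and Mmp15 was lower, 2 higher and 1 lower of 10, where 16.9% of all genes were called higher and 16.5% lower. In DKO, 7 of the 10 were called in either direction, against 23.6% of all genes. Higher with DSS were 6 of the 7, Mmp3, Mmp7, Mmp8, Mmp10, Mmp13 and Tnc, a direction called in 12.6% of all genes, and Mmp15 was lower. Mmp3 and Mmp10 could enter the test only through DSS DKO, so nothing is read from the counts of 7 and 6 against those shares. Xist, which is transcribed from the inactive X chromosome of female cells, was at 6.75 to 14.5 CPM in the 5 baseline libraries and at 633 to 906 CPM in the 6 DSS libraries. By this gene the baseline libraries looked male and the DSS libraries female. DSS and sex therefore cannot be told apart in either comparison, nor in the interaction of genotype and DSS given below. Timp1 is X-linked. The comparisons of DSS with baseline share their DSS libraries with the comparison of genotypes after DSS.

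Mmp7 was the member that went up with DSS in both genotypes. In baseline WT it was at 0.606 and 0.447 CPM, in baseline DKO at 1.08, 0.581 and 1.05, and no baseline library reached the lowest DSS library, at 2.45 CPM. All DSS libraries lay above all baseline libraries of the same genotype in 31.9% of genes tested in WT and 20.4% in DKO. The log2 change of Mmp7 was 2.97 ± 0.42 (SE) in WT and 2.27 ± 0.34 in DKO, with adjusted p = 0.000606 and 0.00104. The change in WT passed in all 17 other settings, and the change in DKO in 16 of 17, all but the fit without the baseline DKO libraries rich in 18S ribosomal RNA (adjusted p = 0.0566).

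Mmp15 went down with DSS in both. Baseline WT was at 133 and 85.1 CPM and baseline DKO at 132, 120 and 122, and all 6 DSS libraries lay below the lowest of these. All DSS libraries lay below all baseline libraries of the same genotype in 31.6% of genes tested in WT and 19.6% in DKO. The log2 change of Mmp15 was -2.19 ± 0.52 (SE) in WT and -1.85 ± 0.48 in DKO (adjusted p = 0.0115 and 0.0224). Without baseline WT replicate 1 the change in WT had adjusted p = 0.0904. The change in DKO did not pass without baseline DKO replicate 2 (adjusted p = 0.0566), without DSS DKO replicate 2 (0.0692) or without both baseline DKO libraries rich in 18S ribosomal RNA (0.181).

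Genes whose transcripts are rich in G and C were lower in the DSS libraries as a class, and Mmp15 is one of them, with 59.6% G and C in its longest coding transcript. When the 18660 genes with a known content were ordered by it and cut into 10 classes of equal size, Mmp15 fell in the richest class (57.8% to 78.3%), whose median log2 change was -0.96 in WT and -0.61 in DKO over 1866 genes. In the poorest class the medians were 0.41 and 0.28. The fall of Mmp15 was larger than the median of its class in both genotypes, and the part of base composition in it was not tested. For Mmp7, at 47.9% G and C, the median of its class was 0.08 in WT and 0.09 in DKO. After DSS between DKO and WT the medians of the 10 classes ran from -0.20 to 0.38. For Mmp13, Mmp8, Mmp3, Mmp10 and Tnc the median of their own class was between -0.12 and 0.06, and their log2 differences were 2.83 or more. The part of base composition in these differences was not tested either. The look at base composition was chosen after the data were seen.

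Timp1 in WT rested on few counts, 4 and 0 at baseline and 4, 18 and 48 after DSS, and its groups overlapped when scaled (0.0808 and 0 CPM against 0.0784, 0.336 and 0.881). The log2 change was 3.32 ± 1.09 (SE) with adjusted p = 0.0359, and it passed in 9 of 17 other settings. It did not pass without either baseline WT library (adjusted p = 0.0548 and 0.172) or without DSS WT replicate 2 or 3 (0.0573 and 0.130), and narrowly so without baseline DKO replicate 1 or DSS DKO replicate 2 (0.0509 and 0.0503). In DKO, Timp1 was at 0.495, 0.363 and 0.660 CPM at baseline and at 0.648, 0.689 and 1.22 after DSS, with a log2 change of 0.74 (-0.77 to 2.24) that did not pass.

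In DKO the changes with DSS were 3.19 ± 0.37 (SE, log2) for Mmp8, with adjusted p = 0.000232, and 8.65 and 7.56 for Mmp10 and Mmp3, with adjusted p = 0.00385 and 0.00630. The change of Mmp8 passed in all 17 other settings. Those of Mmp10 and Mmp3 are again a description, and without both baseline DKO libraries rich in 18S ribosomal RNA they had adjusted p = 0.0920 and 0.123. For Mmp13 and Tnc the changes were 3.01 ± 0.93 and 2.37 ± 0.74 (adjusted p = 0.0446 and 0.0470). Both had groups that overlapped, and they passed in 5 and 6 of 17 other settings. With single libraries left out, Mmp13 kept its call only without DSS DKO replicate 1, and Tnc only without DSS DKO replicate 1 or DSS WT replicate 1. Mmp9, at -0.77, did not pass in DKO (adjusted p = 0.154), but did without baseline DKO replicate 3 (0.00818) and without the filter on low counts (0.00605). In WT, Mmp3, Mmp8, Mmp10, Mmp13 and Tnc did not pass, except that Mmp3 and Mmp10, with at most 6 counts in any of the WT libraries, were called lower with DSS without the filter on low counts (-2.49 for each, adjusted p = 0.0368 for each).

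Whether the difference between DSS and baseline was the same in DKO and WT was tested by the interaction of genotype and DSS. Mmp8 was the 1 member of 10 that passed, where 1.57% of all genes did. Its log2 change with DSS was 3.05 ± 0.54 (SE) larger in DKO, with adjusted p = 0.0207, and it passed in 10 of 17 other settings (adjusted p up to 0.0808). It did not pass without either baseline WT library, baseline DKO replicate 2 or 3, DSS WT replicate 2 or 3, or DSS DKO replicate 2. Mmp3, Mmp10, Mmp13 and Tnc had interaction terms of 10.06, 11.15, 2.54 and 2.51 with adjusted p = 0.133, 0.177, 0.352 and 0.257. Without DSS DKO replicate 1, the low library of these genes, all 5 passed, where 1498 of 19147 genes did. That library was the one seen to be low, and Mmp3 and Mmp10 entered the test only through DSS DKO. Nothing is therefore read from the 5 calls.

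**Figure D4:**
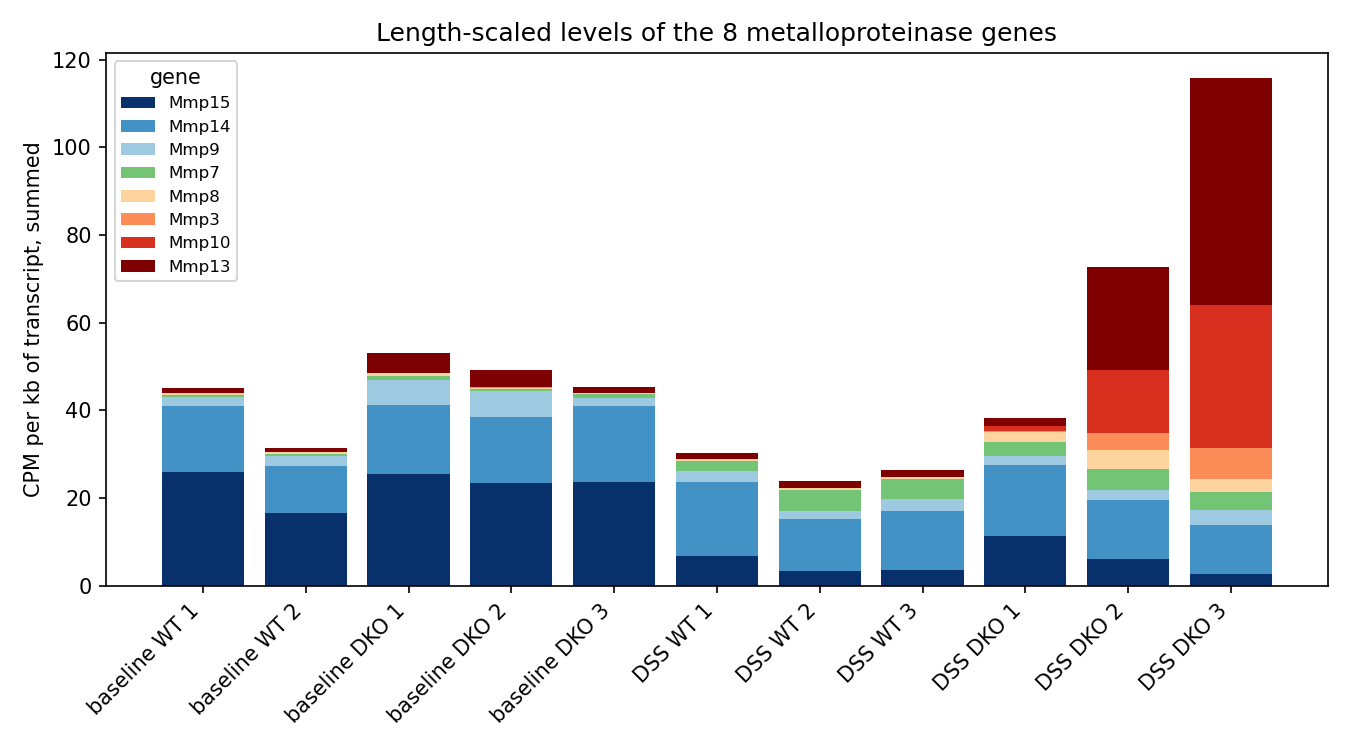
Levels per length (CPM per kb of the longest coding transcript, vertical axis from 0) of the 8 metalloproteinase genes, stacked for each of the 11 libraries. Mmp15 and Mmp14 make up most of the bars at baseline, and Mmp13 and Mmp10 most of those of DSS DKO replicates 2 and 3.

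Levels of different genes were compared per kilobase of the longest coding transcript (RPKM). In all 5 baseline libraries Mmp15 was the highest of the 8 metalloproteinases and Mmp14 the second, with mean RPKM of 21.2 ± 6.60 and 12.9 ± 3.17 in WT (SD, n = 2) and of 24.3 ± 1.19 and 16.1 ± 1.15 in DKO (SD, n = 3). In DSS WT Mmp14 came first in every library, at 14.1 ± 2.60 RPKM, and the second place went to Mmp15 in replicate 1 and to Mmp7 in replicates 2 and 3. Mmp7 and Mmp15 there did not differ beyond their spread, at 3.87 ± 1.38 and 4.65 ± 1.91 RPKM (SD, n = 3 each).

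The order in DSS DKO depended on the library. Replicate 1 had Mmp14 first and Mmp15 second, as in DSS WT replicate 1, with Mmp13 at 4.99% and Mmp10 at 2.89% of the summed RPKM of the 8 genes. In replicates 2 and 3 Mmp13 came first and Mmp10 second, with 32.4% and 44.6% for Mmp13 and 19.7% and 28.2% for Mmp10. The summed RPKM was 38.3, 72.8 and 116 in replicates 1 to 3, beside 30.3, 23.9 and 26.4 in DSS WT. At baseline the sum was 31.5 and 45.2 in WT and 45.3 to 53.0 in DKO, so the sum of the DSS WT libraries lay below every baseline library. Tnc and Timp1 stayed low per length, with at most 4.94 and 1.39 RPKM, both in DSS DKO replicate 3.

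Genes with the most similar profile were found by the root mean square difference of centred log2 CPM over the 11 libraries, where 0 means an identical profile. For Mmp13 the nearest of all tested genes was Tnc, at 0.54, followed by G6pc at 0.73 and the collagen Col12a1 at 0.78. Tnc was nearest to Col12a1 (0.49), the collagen cross-linking enzyme Loxl2 (0.51) and Mmp13. Col12a1 was at 2.70, 10.1 and 16.5 CPM in DSS DKO and 1.66 to 1.93 in DSS WT, and within DSS DKO its libraries had the order of Tnc.

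Mmp3 was nearest to the ion channel gene Trpa1 (0.70), the hyaluronan-degrading Cemip (0.99) and Plau (1.18), the urokinase gene. Mmp10 was nearest to Dio2 (1.15), a deiodinase, Mmp3 (1.38) and Plau (1.68). Mmp3 and Mmp10 also varied most of the 10 genes, with SDs of log2 CPM over the libraries of 2.94 and 3.81. Mmp8 was nearest to the bile acid transporter Slc10a2 (0.24), the matrix protein Tgfbi (0.33) and lipocalin 2, Lcn2 (0.35), a protein of neutrophils and of inflamed epithelium. Slc10a2, the nearest, was at 116, 164 and 223 CPM in DSS DKO against 22.4 ± 2.07 (SD, n = 3) in DSS WT.

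Mmp9 was nearest to Col22a1, Sparc and Ctsk (0.30 to 0.32), which like Mmp9 were highest in baseline DKO replicates 1 and 2. Mmp7 was nearest to Prrg4, Ifitm1 and Trdv4 (0.34 to 0.39), and Mmp14 to Hyal2, Dazap1 and Traf2 (0.10 to 0.11). Mmp15 was nearest to Scaf1, Gas2l1 and Khsrp (0.12 to 0.14), which were likewise lower in the DSS libraries, with Scaf1 at 67.6 to 110 CPM at baseline and 9.50 to 46.2 after DSS. For Timp1 the nearest were Dynlt1b, Pid1 and Upk3b at 0.82 to 0.87. The measure also reflects depth at low counts and library composition, and no function is implied by it.

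Enzymes that activate the proforms of metalloproteinases, and other genes of the pathway, were read from 7 lists. The counts called after DSS in these lists, and in the cell markers below, stand beside 5.26% of all genes called higher and 5.98% lower. Of 14 tested genes of plasminogen and pro-metalloproteinase activation, 5 were higher and 0 lower after DSS in DKO, with a median log2 difference of 0.95 beside 0.03 for all genes. Plau, urokinase, was at 1.48, 11.8 and 27.0 CPM in DSS DKO against 0.235, 0.820 and 0.257 in DSS WT (log2 difference 4.93 ± 1.04, SE, adjusted p = 0.0181). Its libraries followed the order of Mmp13 and Mmp10. Plat, tissue plasminogen activator, was at 12.3, 42.5 and 18.1 CPM against 1.43, 4.05 and 3.17 (3.07 ± 0.54, adjusted p = 0.00771).

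Plaur, the urokinase receptor, rose from 12.2 ± 2.13 CPM in DSS WT to 24.9 ± 4.49 in DSS DKO (SD, n = 3 each; adjusted p = 0.00797). Prss22, a tryptase that activates pro-urokinase, rose from 0.591 ± 0.271 to 5.18 ± 2.24 CPM (adjusted p = 0.00590). Plaur and Prss22 were not lowest in replicate 1 of DSS DKO, unlike Mmp13, Mmp10, Mmp3 and Tnc. Plau, Plat and Prss22 were low at baseline, with means of at most 0.294 CPM, while Plaur had means of 6.89 CPM in WT and 6.77 in DKO.

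Among 6 tested inhibitors other than Timp1, 1 was higher and 1 lower after DSS in DKO, with a median log2 difference of -0.33. Timp2, an inhibitor that also takes part in activation of pro-Mmp2, was at 8.05, 12.1 and 13.4 CPM in DSS DKO against 5.94, 5.63 and 6.46 in DSS WT (0.90 ± 0.20, SE, adjusted p = 0.0168). Timp4 was at 1.22, 0.527 and 0.340 CPM against 2.72, 4.01 and 2.73 (-2.16 ± 0.40, adjusted p = 0.00660). Timp1 did not pass.

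Of 10 other metalloproteinases tested, 1 was higher and 0 lower, with a median of 0.46. That gene was Mmp19, at 2.35, 5.02 and 9.25 CPM in DSS DKO against 0.392, 0.708 and 1.03 in DSS WT (2.96 ± 0.49, SE, adjusted p = 0.00407). Its DSS DKO libraries had the order of Mmp13, an order whose share among all genes was not counted. With DSS, Mmp12 was 4.58 ± 1.17 higher on the log2 scale in DKO (adjusted p = 0.0169) and Mmp24 was lower in WT (-3.92 ± 1.02, adjusted p = 0.0125), both at under 1 CPM in the mean of each group.

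Of 15 ADAM and ADAMTS proteases, 3 were higher and 2 lower, with a median of -0.04. Adam28, Adamts12 and Adam12 were the higher ones, all at low levels (DSS DKO means of 0.464, 0.553 and 1.24 CPM). Outside DSS DKO, Adam28 was at no more than 0.121 CPM and Adamts12 at no more than 0.242. Both, like Mmp3 and Mmp10, entered the test only through DSS DKO, so nothing is read from the count of 3. Adam17, the sheddase that releases tumour necrosis factor, fell from 72.8 ± 0.636 CPM in DSS WT to 52.2 ± 3.68 in DSS DKO (SD, n = 3 each; adjusted p = 0.00847).

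Among 23 matricellular genes and receptors around Tnc, 1 was higher and 2 were lower, with a median of 0.29. Thbs1, thrombospondin 1, rose from 171 ± 15.4 to 301 ± 57.7 CPM (adjusted p = 0.0131). Cd44, the hyaluronan receptor that also docks Mmp7 and Mmp9 at the cell surface, fell from 119 ± 17.3 to 52.0 ± 10.4 CPM (adjusted p = 0.00180). Itga8, an integrin subunit that binds tenascin C, was at 0.286 ± 0.144 and 0.0471 ± 0.00766 CPM (adjusted p = 0.0431; SD, n = 3 each).

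Cytokines and receptors known to induce these genes had 2 higher and 0 lower of 20, with a median of 0.24. Il11 was at 0.481, 2.67 and 3.74 CPM in DSS DKO against 0.216, 0 and 0.147 in DSS WT (4.23 ± 1.18, SE, adjusted p = 0.0487), and Il1r1, the interleukin 1 receptor, at 42.8 ± 14.2 and 24.2 ± 2.18 CPM (SD, n = 3 each; adjusted p = 0.0267). Of 15 AP-1 and ETS factors 0 were higher and 1 was lower, with a median of 0.29. The lower one was Ets1, at 8.02 ± 2.01 CPM in DSS DKO against 15.8 ± 1.38 in DSS WT (adjusted p = 0.0117). With DSS in DKO, Atf3 rose (2.02 ± 0.30, SE, log2) and Etv4 fell (-2.85 ± 0.41), with adjusted p = 0.00144 and 0.00116.

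**Figure D5:**
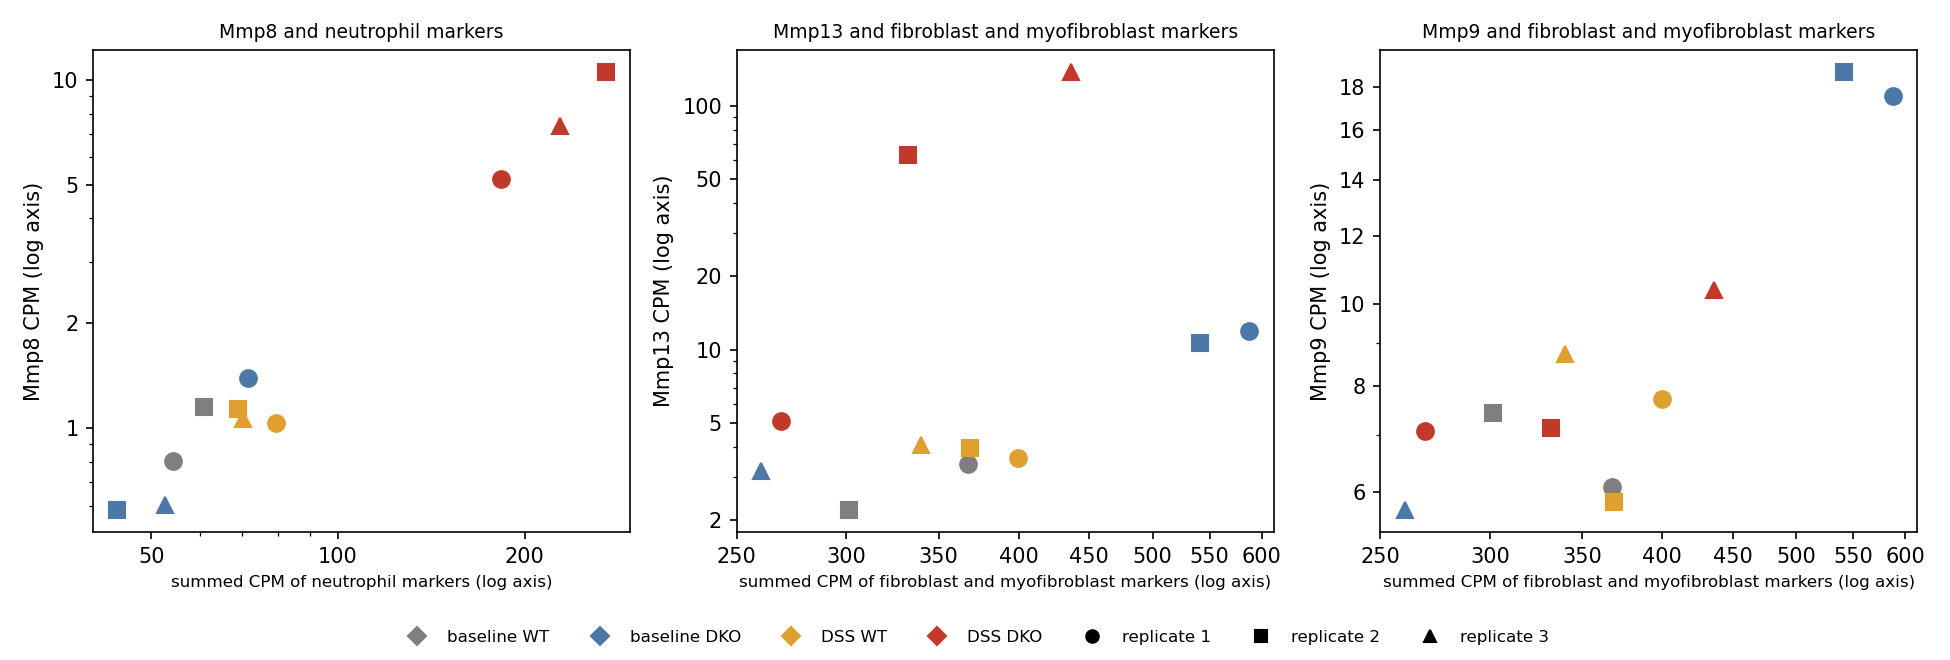
Level of Mmp8 beside the summed CPM of neutrophil markers (left), and of Mmp13 and Mmp9 beside that of fibroblast and myofibroblast markers (middle, right), on log axes, with 1 point for each of the 11 libraries. The 3 DSS DKO libraries were highest on both axes at left. In the middle, the 3 DSS DKO libraries lay in the same order on both axes, and the 3 DSS WT libraries in opposite orders. The highest fibroblast markers were in baseline DKO replicates 1 and 2. At right, baseline DKO replicates 1 and 2 were highest on both axes.

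Markers of cells other than epithelium were read beside these results. Epcam, the epithelial marker, was at 1096 to 1293 CPM in DSS DKO, 1337 to 1432 in DSS WT and 1204 to 1758 at baseline. The summed level of 10 epithelial markers was 14384 to 15133 CPM in DSS DKO, 17515 to 18792 in DSS WT and 21852 to 32271 at baseline. Epcam and the sum were thus lower in every DSS DKO library than in any DSS WT library, although 0 of the 10 markers passed as higher or lower. Of all genes tested, 17.9% were lower in every DSS DKO library than in any DSS WT library. The part of the epithelial markers in the levels of Mmp13, Mmp8, Mmp3, Mmp10 and Tnc was not tested. Among neutrophil markers, 7 of 14 tested passed as higher in DKO after DSS and 0 as lower. Of all genes, 5.26% were called higher and 5.98% lower. Stfa2 of that list had 0 CPM in the other groups and 0.148 to 0.295 CPM in DSS DKO. It could enter the test only through DSS DKO, so nothing is read from the count of 7 against that share. The summed level of the neutrophil markers was 184 to 271 CPM in DSS DKO, 69.0 to 79.4 in DSS WT and 44.1 to 71.6 at baseline. Ly6g, taken as the defining marker of neutrophils, rose from 30.4 ± 7.46 to 131 ± 15.9 CPM (SD, n = 3 each), and was at 15.5 to 21.3 CPM at baseline. Csf3r and Cxcr2 of the same list overlapped between the groups. They were at 1.25 ± 0.733 and 1.31 ± 0.574 CPM in DSS DKO against 1.57 ± 0.683 and 1.02 ± 0.592 in DSS WT. The granule genes Mpo and Elane did not pass, at 1.41 ± 0.211 and 0.514 ± 0.117 CPM in DSS DKO against 2.08 ± 0.360 and 0.900 ± 0.0869 in DSS WT. Both were lower in every DSS DKO library than in any DSS WT library, the opposite direction to Ly6g and Mmp8. Mmp8 moved with the summed neutrophil level, of which Ly6g was the largest part in DSS DKO. The part of neutrophils in the level of Mmp8 was not tested, and Mmp9 did not pass.

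Of 15 fibroblast and myofibroblast markers, 4 were higher and 1 lower after DSS in DKO, with summed levels of 269 to 436 CPM in DSS DKO, 340 to 399 in DSS WT and 260 to 588 at baseline. Within DSS DKO the sum was 269, 332 and 436 CPM in replicates 1 to 3, the same order as Mmp13, Mmp10, Mmp3 and Tnc. The summed epithelial level had that order too, at 14384, 14471 and 15133 CPM, while Col1a1 did not, at 118, 111 and 167. In DSS WT the fibroblast sum fell, at 399, 369 and 340 CPM in replicates 1 to 3. Mmp13, at 3.59, 3.97 and 4.07 CPM, and Tnc, at 1.78, 2.13 and 2.22, rose there. The 4 higher markers were Pdgfra, Dcn, Col6a2 and Col3a1, and the lower one was Thy1. Pdgfra, a receptor of fibroblasts, was at 0.479 ± 0.385 CPM in DSS WT and 5.04 ± 3.72 in DSS DKO, and Dcn, decorin, at 8.45 ± 1.72 and 39.3 ± 23.6 (adjusted p = 0.0221 and 0.0181). Thy1 was at 5.13 ± 0.326 CPM in DSS WT and 1.93 ± 0.934 in DSS DKO (adjusted p = 0.0200). Col1a1, which defines fibroblasts, was at 178 ± 17.0 and 132 ± 30.4 CPM, and Col1a2 at 114 ± 9.15 and 83.4 ± 20.5 (SD, n = 3 each), and neither passed. The part of these cells in the levels of Mmp13, Mmp3, Mmp10 and Tnc was not tested.

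Of 13 macrophage and monocyte markers 0 were higher and 2 lower, with sums of 81.7 to 116 CPM in DSS DKO and 115 to 136 in DSS WT, and Adgre1 at 1.43 to 1.94 and 1.38 to 1.58 CPM. Of 8 T cell markers 0 were higher and 7 lower, with sums of 26.1 to 53.5 and 103 to 116 CPM. Endothelial (6 tested) and B cell (5 tested) markers had 0 in either direction. Itgam, a myeloid integrin of the macrophage list, was picked after its values were seen and went against the sum of that list. It was at 2.43 to 3.48 CPM in DSS DKO and 0.647 to 2.02 in DSS WT and did not pass (adjusted p = 0.0545). The part of these cell types in the members' levels was not tested.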

How the data were processed

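Polyadenylated RNA of 11 libraries was sequenced with the NEBNext Ultra II RNA kit, per the labels' protocols. STAR and the build mm10 are named in the submitters' processing notes. The sources used here name no version, read counter, annotation or strand setting. The values are raw counts per gene as deposited by the authors, with 1 column per library. Totals were 41631951 to 52761900 counts, so counting error matters mainly for Mmp3, Mmp10 and Timp1. Without a known strand setting, reads of overlapping antisense genes cannot be told apart.

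The counts were fitted in edgeR 4.0.16 under R 4.3.3, with these steps: filterByExpr at a minimum count of 10, TMM scaling, and 1 robust quasi-likelihood fit with 4 group means over all 11 libraries. Tests were two-sided F-tests, with Benjamini-Hochberg adjustment over all 19267 genes and a threshold of 0.05. SE was taken as the absolute log2 fold change over the root of F. Ratios of summed counts have exact conditional binomial 95% intervals. RPKM is CPM per kilobase of the longest coding transcript in GENCODE M21, which held 93.0% of the symbols. Likeness used log2 CPM with a prior count of 2. Within each group every pair of libraries differed beyond sampling noise (chi-square per degree of freedom from 15.9 upward).

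The named genes were all 10 members; from each of 7 pathway lists, up to 4 genes past the threshold in DKO against WT after DSS by adjusted p, or, where fewer than 2 passed, up to 2 more from DSS against baseline; and the 3 nearest genes of each member. Ly6g, Epcam and the other defining markers were named with their lists. Col12a1, Loxl2, Slc10a2, Scaf1, Pdgfra, Dcn, Col6a2, Col3a1, Thy1, Col1a2, Itgam, Mpo, Elane, Csf3r and Cxcr2 were given values after these were seen. The members, lists and tests were chosen with earlier results of these data known. The methods were tested on simulated data. Alternatives were DESeq2 (1.42.0), its size factors, no filter, a replicate block, subsets of libraries, omission of the 18S ribosomal RNA entry, and omission of each library.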

Additional observations from a re-analysis of the deposited data

Results flagged for a closer look

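One result differed between genotypes by a test of the difference itself. The log2 change of Mmp8 with DSS was 3.05 ± 0.54 (SE) larger in DKO than in WT, with adjusted p = 0.0207 from the quasi-likelihood test of edgeR. It rose 3.19 in DKO, with all 3 DSS libraries above all 3 baseline libraries, and was at 0.14 in WT, where it did not pass. In DKO, 20.4% of all genes tested had all DSS libraries above all baseline libraries. The interaction passed in 10 of 17 other settings. By Xist, DSS and sex cannot be told apart in it. The groups hold fewer than 4 libraries, so single libraries were not tested as outliers.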

How the results depend on the processing

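Leaving out each library in turn gave 691 to 3064 genes and 3 to 5 members called after DSS; 1 to 5 and 0 at baseline; 2775 to 7378 and 1 to 3 for DSS in WT; 2605 to 5788 and 4 to 7 for DSS in DKO; and 2 to 1498 and 0 to 5 for the interaction. Each range is set against the reported 2165 and 5, 5 and 0, 6432 and 3, 4545 and 7, and 302 and 1. After DSS the count of genes fell most without DSS DKO replicate 2 (691), DSS WT replicate 2 (856) or DSS WT replicate 3 (866), with 3 members in each. For DSS in WT it was lowest without baseline WT replicate 1 (2775) and also fell without baseline WT replicate 2 (4257) or DSS WT replicate 2 or 3 (4163 and 4088). For DSS in DKO it was lowest without baseline DKO replicate 2 (2605) or DSS DKO replicate 2 (2987). For the interaction it was lowest without baseline WT replicate 1 (2) and highest without DSS DKO replicate 1 (1498). The DSS libraries alone gave 1372 genes and 3 members. Without the filter on low counts, 79 genes and 3 members were called at baseline, 5 members for DSS in WT, and 1469 genes and 5 members for the interaction. DESeq2 called 20 genes at baseline, and 1375 genes and 3 members for the interaction. Without both baseline DKO libraries rich in 18S ribosomal RNA, a setting chosen after seeing the data, 1 gene was called at baseline, 957 genes and 1 member for DSS in DKO, and 86 genes for the interaction. The cause of these moves was not tested.

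Directions reversed only for log2 differences that did not pass. Without those 2 libraries Mmp9 was at -0.24 and Tnc at -0.80 at baseline, and Mmp9 at 0.52 for DSS in DKO and 0.39 for the interaction. With single libraries left out, Mmp7 ranged from -0.18 to 0.26, Mmp9 from -0.062 to 0.28, Mmp14 from -0.19 to 0.12 and Mmp15 from -0.075 to 0.94 after DSS. At baseline Mmp8 ranged from -0.72 to 0.070, Mmp10 from -5.09 to 0.69 and Mmp15 from -0.081 to 0.55. For DSS in WT Mmp8 ranged from -0.088 to 0.43, Mmp9 from -0.0021 to 0.31 and Mmp14 from -0.089 to 0.40, and the interaction term of Mmp15 from -0.27 to 0.75.

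With the replicate number as a block, 3 genes were called at baseline and Mmp15 had an interaction term of -0.052. Mmp13 lost its call after DSS under the replicate block (adjusted p = 0.0999) and, with Tnc, that for DSS in DKO (0.164 and 0.0802), as did Timp1 for DSS in WT (0.0623). The numbers were not taken to pair libraries: deviations of the 15 same-numbered pairs had correlations of -0.07 to 0.30, with 4 above 0.1. Depth limits Mmp3, Mmp10 and Timp1 outside DSS DKO, where they had few counts, and no scaling moved the median of all genes by 0.04 or more.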
